A study of Mus musculus with 6 samples.

Results

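Cell cycle and DNA replication genes were described in 6 RNA-seq libraries from mice with lung cancer. The genes form a panel of 44 of the 18238 genes in the count table, looked up by symbol. The panel holds 22 genes of mitosis and 22 of DNA replication and the entry into S phase. All 44 were present and all 44 passed the filter on low counts. The libraries came from 3 mice treated with artemisinin (artemisinin replicates 1 to 3) and 3 mice labelled as the cancer model (model replicates 1 to 3). The drug artemisinin, a plant-derived sesquiterpene lactone, is best known as an antimalarial. All 6 mice carry the lung cancer model. The sources used here do not give the genotype, strain, age, tissue, way of induction, dose or duration. The p-values weigh the difference between the groups against the spread between these libraries.

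A dividing cell copies its DNA in S phase and separates the copies in mitosis, and the genes for these steps are transcribed in 2 waves. Genes of replication are switched on late in G1 by E2F transcription factors, and genes of mitosis follow in G2 under B-MYB, FOXM1 and the MuvB complex. In quiescent cells both sets are held low by repressor complexes that contain E2F4 or MuvB. In adult lung most cells are quiescent, and transcripts of these genes come mainly from the few cells that cycle, which in a tumour-bearing lung can be tumour, immune, endothelial or epithelial cells. In bulk RNA, fewer cycling cells and less transcript per cycling cell cannot be told apart.

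The promoters of the panel show the sequence elements by which the 2 waves are known. RefSeq promoter windows of GRCm38.p6, from 250 bases before to 50 after the transcription start, were matched for 34 of the 44 genes, 17 of each set. The search, on both strands, was for the CCAAT box bound by NF-Y (CCAAT), the cell cycle genes homology region or CHR bound by MuvB (TTTGAA), and the E2F site (the words TTCCCGC and TTCGCGC, and also TTGGCGC and TTGCCGC). Matches can overlap. The 4 windows printed next are those of Cdk1 and Ube2c, whose levels set 1 model library apart, and of Mcm3 and Mcm6, 2 subunits of one helicase with unlike spread. Capitals mark every match to any of the 3 elements.
Cdk1 (chr10:69352863-69353162, minus strand): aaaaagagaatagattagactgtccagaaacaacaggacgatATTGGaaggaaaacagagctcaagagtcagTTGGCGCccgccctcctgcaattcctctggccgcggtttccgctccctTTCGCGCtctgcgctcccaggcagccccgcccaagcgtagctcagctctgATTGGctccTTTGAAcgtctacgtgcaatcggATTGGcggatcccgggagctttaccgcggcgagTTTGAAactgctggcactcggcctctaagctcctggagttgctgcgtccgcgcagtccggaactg
Ube2c (chr2:164769679-164769978, plus strand): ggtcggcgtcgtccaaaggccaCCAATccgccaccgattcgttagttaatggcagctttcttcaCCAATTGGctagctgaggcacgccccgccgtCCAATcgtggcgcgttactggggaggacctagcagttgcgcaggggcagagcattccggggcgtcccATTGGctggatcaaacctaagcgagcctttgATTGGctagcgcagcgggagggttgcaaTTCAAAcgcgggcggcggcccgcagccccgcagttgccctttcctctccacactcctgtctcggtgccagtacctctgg
Mcm3 (chr1:20820263-20820562, minus strand): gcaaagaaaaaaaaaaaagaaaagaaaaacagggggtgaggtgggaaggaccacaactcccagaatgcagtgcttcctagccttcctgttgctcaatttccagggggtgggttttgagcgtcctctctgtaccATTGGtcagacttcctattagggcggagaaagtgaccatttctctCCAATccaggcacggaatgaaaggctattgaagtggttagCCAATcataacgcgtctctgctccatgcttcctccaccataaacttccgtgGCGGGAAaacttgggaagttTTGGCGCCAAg
Mcm6 (chr1:128359656-128359955, minus strand): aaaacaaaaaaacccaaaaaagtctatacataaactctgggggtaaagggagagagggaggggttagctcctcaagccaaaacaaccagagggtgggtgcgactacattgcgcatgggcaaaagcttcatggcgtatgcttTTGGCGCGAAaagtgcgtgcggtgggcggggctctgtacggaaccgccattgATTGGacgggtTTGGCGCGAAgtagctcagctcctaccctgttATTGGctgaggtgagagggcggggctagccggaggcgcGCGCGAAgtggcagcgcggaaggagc

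The CHR word was common in mitosis promoters and the E2F words in replication promoters. TTTGAA occurred in 77.8% of the 18 mitosis windows (13 of 17 genes), in 11.1% of the 18 replication windows (2 of 17 genes, Mcm2 and Cdc45) and in 17.9% of all 32851 windows. An E2F word occurred in 66.7% of the replication windows (11 of 17 genes), in 16.7% of the mitosis windows (3 of 17 genes, Mki67, Cdk1 and Ccnb1) and in 9.57% of all windows. The CCAAT word was shared by both sets, with 88.9% of mitosis and 66.7% of replication windows against 37.4% of all windows. Both CCAAT and TTTGAA stood in 13 of 17 mitosis genes, against 6.95% of all windows. In the Ube2c window the single TTTGAA match began 29 bases before the start, with 6 CCAAT matches farther upstream. The Cdk1 window carried 2 TTTGAA matches, beginning 71 and 15 bases before the start, and 2 E2F words. In Mcm6 the window held 5 E2F matches and no TTTGAA, and in Mcm3 it held 3 and none. These matches describe letters in the windows and were not tested as binding sites.

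**Figure D1:**
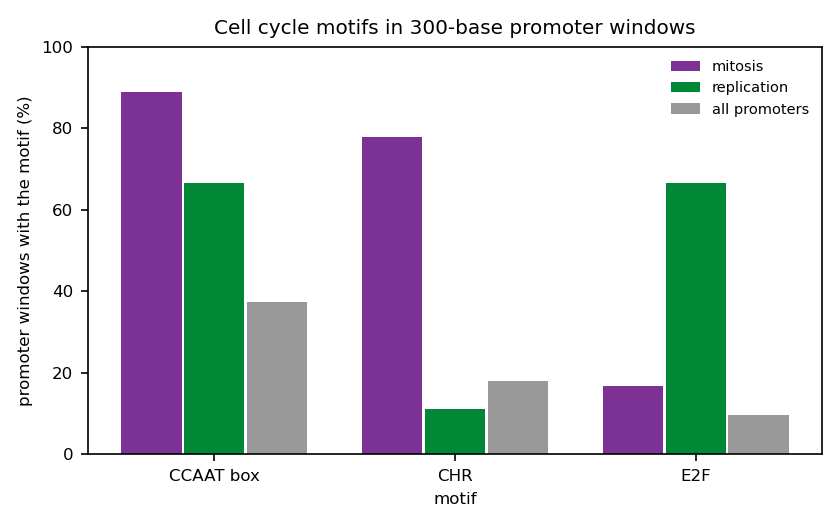
The bars give the percent of promoter windows (y axis) that hold each motif (x axis) for mitosis members (18 windows), replication members (18 windows) and all 32851 windows. The CHR bar is 77.8% for mitosis and 11.1% for replication members, and the E2F bar is 16.7% and 66.7%.

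The libraries held 25566173 to 34745497 counts and 16566 to 17015 detected genes. Levels are given as normalised CPM, CPM being counts scaled to a common library total, here after correction for composition with the TMM method. Alveolar type 2 markers were present in every library, with a summed level over 6 markers of 42296 to 63377 normalised CPM in the model and 5753 to 17802 with artemisinin. Artemisinin replicate 2 stood apart by skeletal muscle markers, which summed to 5319 normalised CPM there and to at most 55.4 in the other libraries. Basal keratinocyte markers also stood out there, with a sum of 260.4 against at most 10.2 in the other libraries. The part of these cell types in the levels given below was not tested. Artemisinin replicate 1 stood apart by gene length. With genes divided by length into 5 equal parts, its median level relative to the model mean was 0.33 (log2) in the part with the shortest genes and −0.20 in that with the longest, while the other libraries ranged from −0.07 to 0.10 in these parts.

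Proliferation genes differed more between mice of one group than between the group means, and none of the 44 was called as changed with artemisinin. The mitosis genes were highest in model replicate 1 and lowest in artemisinin replicate 1, and the replication genes had the narrower range, with artemisinin replicate 1 again lowest. A set's level in a library is given as the mean over its 22 genes of log2 normalised CPM minus the mean of the 3 model libraries. The mitosis level was −0.65, −0.04 and 0.21 in artemisinin replicates 1, 2 and 3 and 0.58, −0.32 and −0.26 in model replicates 1, 2 and 3. The groups overlapped, with the highest level in a model mouse and the lowest in an artemisinin mouse. In linear terms model replicate 1 stood at 1.498 times the model mean and artemisinin replicate 1 at 0.639 times. The replication level was −0.33, 0.08 and 0.16 in artemisinin replicates 1, 2 and 3 and 0.17, −0.05 and −0.12 in the model replicates. These groups overlapped as well.

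**Figure D2:**
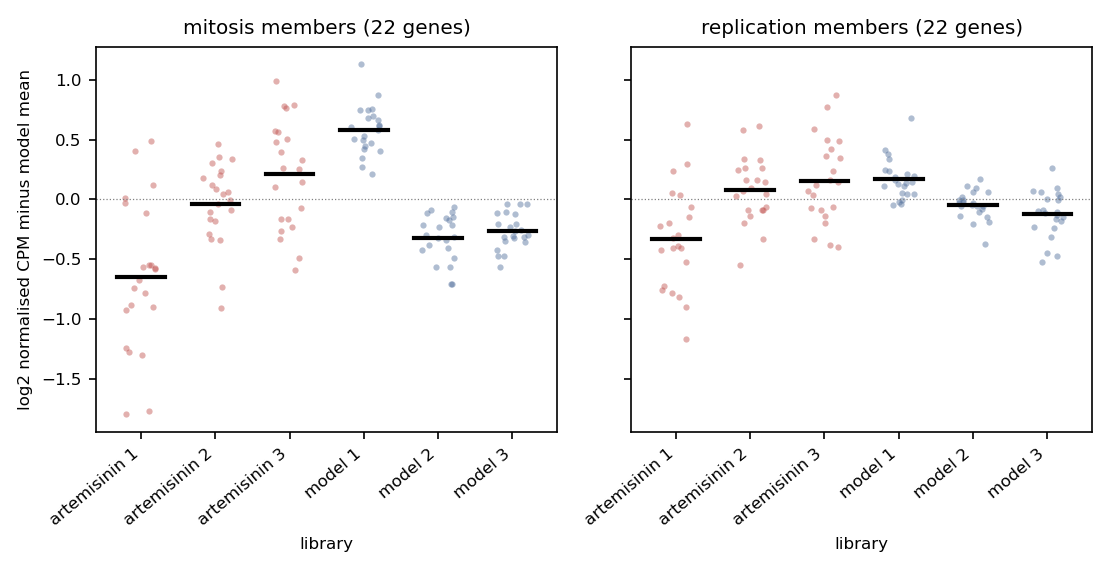
Each point is 1 gene and each bar the mean of the 22 genes, as log2 normalised CPM minus the model mean (y axis) in each of the 6 libraries (x axis), with mitosis on the left and replication on the right. Mitosis bars run from −0.65 in artemisinin replicate 1 to 0.58 in model replicate 1, and replication bars from −0.33 to 0.17 in the same libraries.

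The 2 phases had the same library at the bottom, and the library at the top of the replication order depended on the scaling. From highest to lowest, the mitosis order was model 1, artemisinin 3, artemisinin 2, model 3, model 2 and artemisinin 1. The replication order was model 1, artemisinin 3, artemisinin 2, model 2, model 3 and artemisinin 1, so that on this scale only model replicates 2 and 3 changed places. Scaled by library totals, replication was highest in artemisinin replicate 3, at 0.288 against 0.147 in model replicate 1, and likewise on log2(FPKM + 0.1), at 0.278 against 0.140. The mitosis order had model replicate 1 at the top and artemisinin replicate 1 at the bottom on all of these scales. The differences between neighbours in these orders were not tested. Within the model, the highest library exceeded the lowest by 1.87-fold in mitosis and by 1.23-fold in replication. Among artemisinin mice the corresponding ratios were 1.81 and 1.40. The mitosis level exceeded the replication level by 0.41 (log2) in model replicate 1 and by 0.05 in artemisinin replicate 3, and was below it in the other 4 libraries, by −0.32 in artemisinin replicate 1, −0.12 in artemisinin replicate 2, −0.27 in model replicate 2 and −0.14 in model replicate 3.

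Model replicate 1 was uniform in mitosis and mixed in replication. All 22 mitosis genes were higher there than in both other model mice, by 1.25-fold (Foxm1) to 3.22-fold (Ube2c) over the next highest model mouse, with a median of 1.67-fold. Of the replication genes 15 of 22 were highest among model mice there, with a median ratio of 1.09 and a range from 0.878 (Gins1) to 1.85 (Rfc4). Over all genes tested, 39.4% were highest in model replicate 1 among the 3 model mice. Artemisinin replicate 1 was the lowest of its group for 18 of 22 mitosis and 17 of 22 replication genes, against 39.1% of all genes tested. It lay below the whole model range for 16 mitosis and 15 replication genes. Artemisinin replicate 3 was the highest of its group for 17 mitosis and 11 replication genes, and lay above the model range for 6 and 8. No share over all genes was computed for artemisinin replicate 3 or for places outside the model range, so these counts have no background here. Taken relative to genes of like length in the same library, the mitosis and replication levels of artemisinin replicate 1 were −0.68 and −0.39, no closer to 0 than before.

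**Figure D3:**
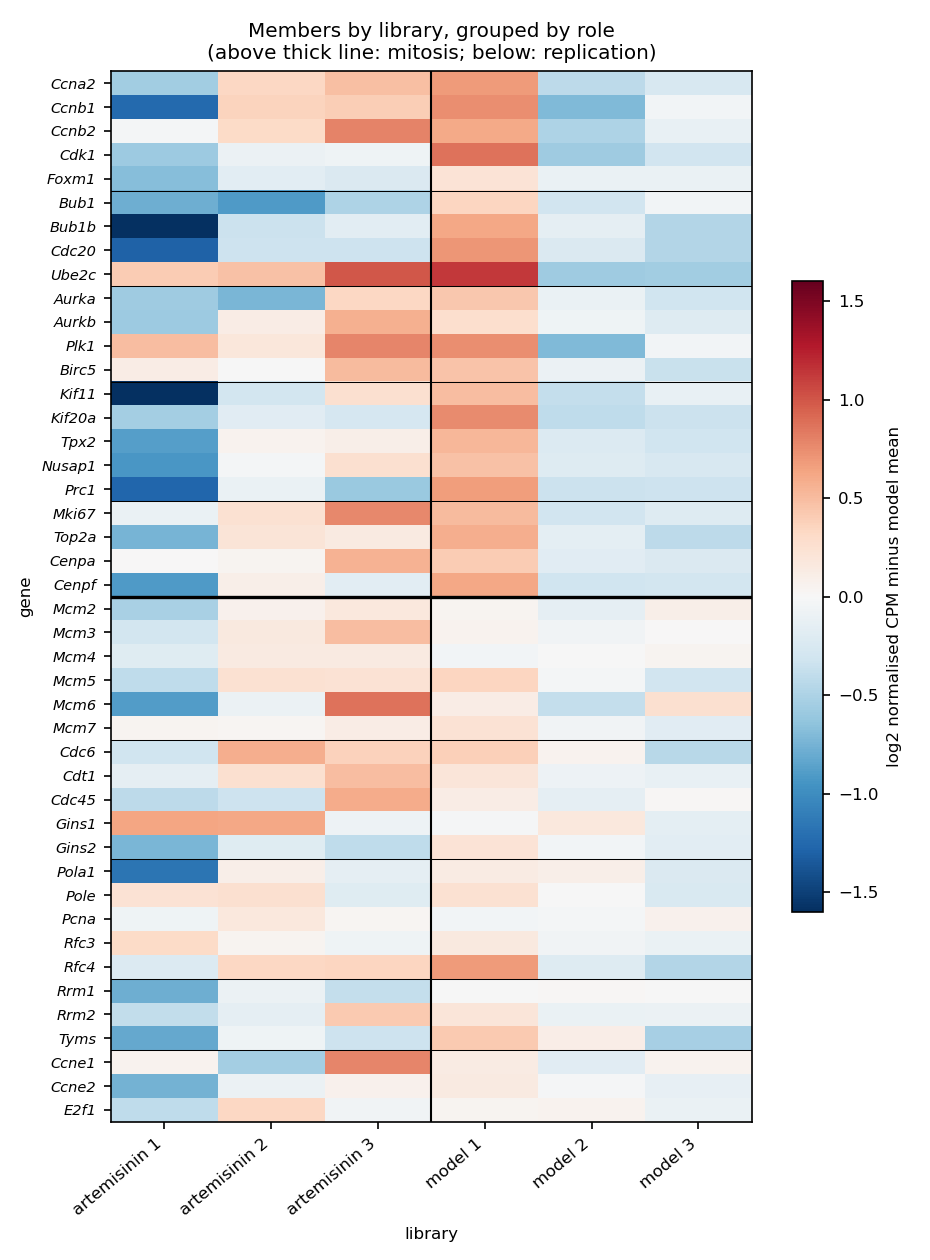
Colour gives log2 normalised CPM minus the model mean for each of the 44 genes (rows, grouped by role, mitosis above the thick line) in each library (columns). Model replicate 1 is above 0 for all 22 mitosis genes, and artemisinin replicate 1 is below 0 for 18 of them.

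The spread between mice was described by the coefficient of variation, the SD over the mean. Its median over 3 mice was 38.8% for mitosis and 11.5% for replication genes in the model, where all genes tested had 11.8%. With artemisinin it was 32.5% and 24.5%, where all genes tested had 22.8%. On the scale of FPKM, which is per gene length and allows genes to be compared, the median mitosis gene stood at 2.32, 4.04 and 4.65 in artemisinin replicates 1 to 3 and 5.75, 2.998 and 3.04 in model replicates 1 to 3. The median replication gene stood at 4.05, 5.72 and 6.80 FPKM with artemisinin and 5.87, 4.62 and 4.13 in the model. By mean FPKM the most abundant was Pcna (72.7), and the lowest were Cdc6 (0.684) in replication and Cenpf (1.01) in mitosis. The most abundant mitosis gene was Ube2c, at 11.9.

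The panel's differences between groups are read here against all genes of the table. Over all 15242 genes tested, 4.47% passed the threshold of 0.05 for the Benjamini-Hochberg adjusted p of the quasi-likelihood test in edgeR (called genes), and 0 of the 44 did. Without adjustment 24.7% of all genes had p under 0.05, and 1 of 44 did (Bub1). DESeq2 called 0 of 44 and 14.1% of the 16243 genes it tested, and limma-voom called 0 of 44 and 3.89% of all genes. Each had 1 of 44 at an unadjusted p under 0.05, against 26.8% of all genes with DESeq2 and 22.8% with limma-voom. Groups did not overlap, with artemisinin below, for 17.3% of all genes and for 2 of 22 mitosis genes (Bub1 and Foxm1) and 2 of 22 replication genes (Rrm1 and Gins2). With artemisinin above, they did not overlap for 16.3% of all genes and for 0 of 44. Comparisons of 3 against 3 cannot give an exact two-sided permutation p under 0.1, so the adjusted p-values rest on edgeR's shared estimate of spread.

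The median log2 fold change, artemisinin over model, was −0.21 for mitosis genes, with 8 above and 14 below 0, and 0.04 for replication genes, with 14 above and 8 below 0. The median over all genes tested was 0.04. The sign of the mitosis median rested on single mice, at 0.05 without artemisinin replicate 1 and 0.14 without model replicate 1. That of the replication median became −0.10 without artemisinin replicate 3, −0.02 without model replicate 2 and −0.02 without model replicate 3. An adjusted p above the threshold does not show equal levels, and the 95% intervals of single genes were wide. Their median half-width was 0.84 on the log2 scale for mitosis and 0.63 for replication genes. The interval lay within a 2-fold change in either direction for 7 of 22 mitosis and 15 of 22 replication genes.

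**Figure D4:**
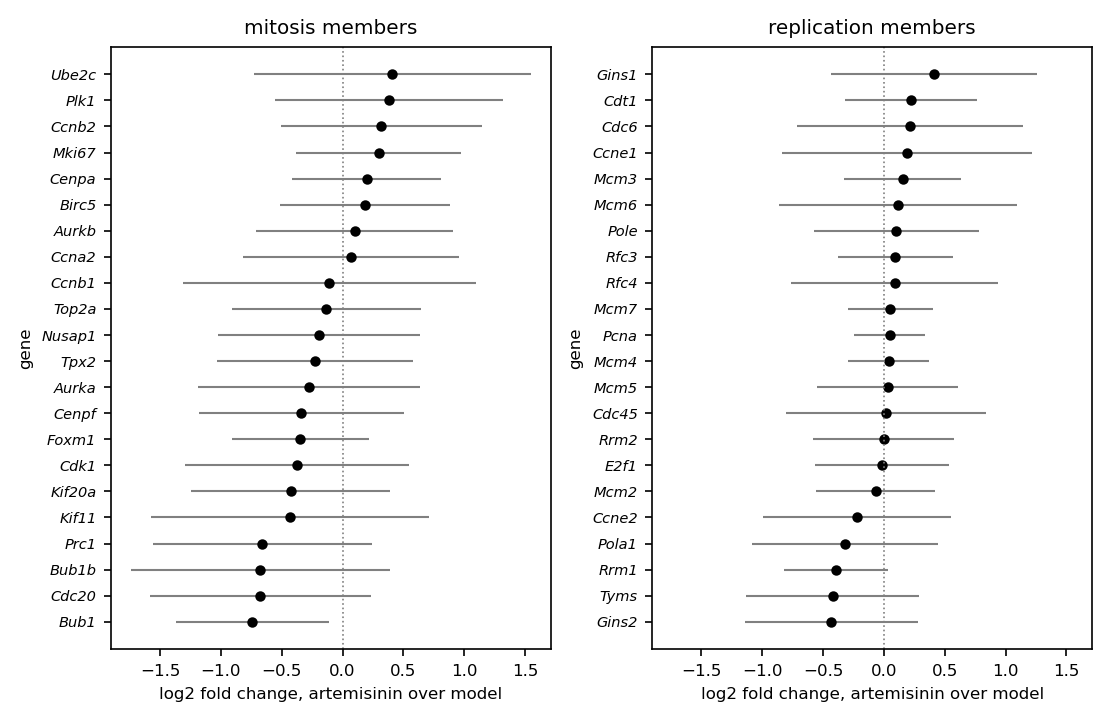
Points give the log2 fold change of artemisinin over model (x axis) for each gene (y axis), and lines the 95% interval from edgeR, with mitosis on the left and replication on the right. Only the interval of Bub1, from −1.37 to −0.11, excludes 0 before adjustment over all genes, and replication intervals are narrower in the median.

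Among genes of chromosome structure, Mki67, which encodes the Ki-67 protein that coats mitotic chromosomes, stood at 50.1, 63.8 and 91.8 normalised CPM in artemisinin replicates 1 to 3 and at 76.7, 43.9 and 46.9 in model replicates 1 to 3. Artemisinin replicate 3 and model replicate 1 were high, and the groups overlapped (log2 fold change 0.30 ± 0.29, SE; edgeR adjusted p = 0.547). The log2 fold change of Mki67 was 0.59 without model replicate 1 and −0.01 without artemisinin replicate 3. Top2a, the topoisomerase that untangles sister DNA, stood at 24.2, 46.7 and 44.9 with artemisinin and 60.4, 36.4 and 30.2 normalised CPM in the model. Here artemisinin replicate 1 alone was low in its group and model replicate 1 alone was high (log2 −0.13 ± 0.33, SE; edgeR adjusted p = 0.822). Without model replicate 1 the value was 0.21. Cenpa, the histone variant of the centromere, and Cenpf, a kinetochore protein, had log2 fold changes of 0.20 and −0.34 and overlapping groups.

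Of the cyclins of the mitosis set (Ccna2, Ccnb1 and Ccnb2), Cdk1 and Foxm1, all but Ccnb2 were highest in model replicate 1 and lowest in artemisinin replicate 1. Cdk1, the kinase that drives entry into mitosis (chromosome 10, 69335146 to 69352912, GRCm38), stood at 8.81, 12.4 and 12.6 normalised CPM with artemisinin and 24.2, 8.93 and 10.7 in the model. Model replicate 1 had the highest level, and the other 5 mice lay close together (log2 −0.37 ± 0.39, SE; edgeR adjusted p = 0.577). The fold change of Cdk1 (log2) was 0.20 without model replicate 1. Ccnb1, the cyclin B1 partner of Cdk1, stood at 3.54, 10.7 and 11.0 with artemisinin and 14.0, 5.11 and 8.14 in the model, with full overlap (log2 −0.11 ± 0.52, SE; edgeR adjusted p = 0.908). Ccnb2, cyclin B2, stood at 7.59, 9.56 and 13.4 with artemisinin and 11.8, 5.51 and 7.17 in the model. Ccnb2 was highest in artemisinin replicate 3 and lowest in model replicate 2, and its groups overlapped (log2 0.32 ± 0.35, SE; edgeR adjusted p = 0.595). Foxm1, the transcription factor of the G2 wave, stood at 6.05, 8.61 and 8.23 with artemisinin and 11.2, 8.96 and 8.96 in the model. All artemisinin values of Foxm1 lay below all model values, by a margin of under 1 normalised CPM, and the difference was not called (log2 −0.35 ± 0.24, SE; edgeR adjusted p = 0.398).

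Bub1, Cdc20 and Bub1b had the 3 lowest fold changes of the mitosis set. Their role group, the spindle checkpoint and anaphase-promoting complex, also holds Ube2c, which had the highest, and the further checkpoint genes Mad2l1 and Ttk had log2 fold changes of −0.14 and −0.27. Bub1, a checkpoint kinase at the kinetochore (chromosome 2, 127800197 to 127831859, GRCm38), stood at 5.46, 4.998 and 6.68 normalised CPM with artemisinin and 12.0, 7.58 and 9.15 in the model. All artemisinin values lay below all model values. The group means were 5.71 ± 0.871 and 9.56 ± 2.22 (SD, n = 3 per group). The log2 fold change was −0.74 ± 0.27 (SE), with an edgeR adjusted p of 0.153 and 0.0266 before adjustment. Its adjusted p by edgeR, DESeq2 and limma stayed above the threshold in every alternative run, with a lowest value of 0.0702 in DESeq2. Bub1b, which encodes the checkpoint protein BubR1, stood at 4.28, 11.5 and 12.9 with artemisinin and 22.3, 13.2 and 10.5 in the model. Cdc20, the activator of the anaphase-promoting complex that the checkpoint holds back, stood at 6.67, 13.0 and 13.1 with artemisinin and 26.7, 14.0 and 11.8 in the model. Both had artemisinin replicate 1 low and model replicate 1 high, with log2 fold changes of −0.68 ± 0.45 and −0.68 ± 0.39 (SE; edgeR adjusted p = 0.387 and 0.315). Without model replicate 1 these were −0.31 and −0.24. Cdc20 overlaps Elovl1 on the opposite strand by 53 bases, and Elovl1 stood at 153.1 to 314.7 normalised CPM with artemisinin and 409.9 to 661.3 in the model. Whether reads of Elovl1 entered the Cdc20 count was not tested.

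Ube2c and Plk1 had the 2 highest fold changes of the mitosis set. Ube2c, the ubiquitin-conjugating enzyme of the anaphase-promoting complex (chromosome 2, 164769929 to 164772902, GRCm38), stood at 10.7, 11.1 and 15.9 normalised CPM with artemisinin and 17.5, 5.42 and 5.44 in the model. Model replicates 2 and 3 were the low pair, and model replicate 1 was the highest of all 6 mice (log2 0.41 ± 0.49, SE; edgeR adjusted p = 0.622). Ube2c was at log2 1.21 and still not called once model replicate 1 was left out. Its neighbour Tnnc2, a troponin of fast skeletal muscle, overlaps it by 1662 bases on the opposite strand and stood at 394.1 normalised CPM in artemisinin replicate 2 and at most 0.295 elsewhere. Ube2c in that library was between the other artemisinin values. Whether reads of Tnnc2 entered the Ube2c count was not tested. Plk1, the Polo kinase of centrosomes and cytokinesis, stood at 7.26, 5.88 and 8.88 with artemisinin and 8.69, 3.17 and 5.03 in the model (log2 0.38 ± 0.40, SE; edgeR adjusted p = 0.575). Without model replicate 1 the value of Plk1 was 0.84. Aurkb, the kinase of the chromosomal passenger complex, stood at 3.98, 6.44 and 8.80 with artemisinin and 7.15, 5.67 and 5.16 in the model, again with overlap (log2 0.10 ± 0.35, SE; edgeR adjusted p = 0.876).

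The role groups within mitosis were not equally low in artemisinin replicate 1. Spindle motors and microtubule proteins (Kif11, Kif20a, Tpx2, Nusap1 and Prc1) averaged −1.09 on the log2 scale relative to the model mean there, and Aurora and Polo kinases with survivin (Aurka, Aurkb, Plk1 and Birc5) averaged −0.13. The spindle genes are also longer, at 3050 to 4844 bases against 972 to 2249 for the kinases and survivin. Levels in this library fell with gene length, and the part of length in the gap was not tested. Kif11, the motor that pushes spindle poles apart, had the widest spread of the mitosis genes with artemisinin, at 4.09, 11.6 and 16.9 normalised CPM, a 4.13-fold range. The 10 mitosis genes not given in full had log2 fold changes from −0.66 (Prc1, the microtubule crosslinker of the spindle midzone) to 0.20 (Cenpa). Of these genes 3 were above and 7 below 0, with edgeR adjusted p from 0.324 to 0.922. Prc1 overlaps Rccd1 on the opposite strand by 21810 bases, and whether reads of Rccd1 entered the Prc1 count was not tested.

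**Figure D5:**
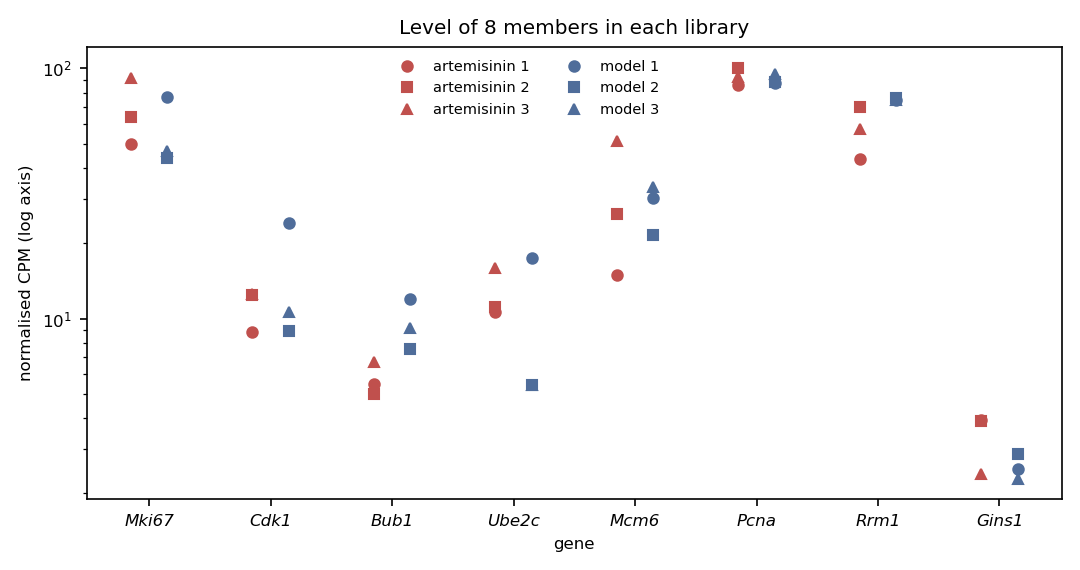
Points give the normalised CPM (y axis, log scale) of 8 genes (x axis) in each library, artemisinin in red and model in blue with a marker shape for each replicate. Cdk1 and Ube2c have model replicate 1 at the top, Bub1 and Rrm1 have all artemisinin values below all model values, and Pcna lies between 86.1 and 100.8 in all 6 libraries.

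In the replication set, genes of the MCM helicase were close between groups. Mcm2 to Mcm7 encode the 6 subunits of the ring that is loaded on origins and unwinds DNA. Mcm2 stood at 16.8, 25.4 and 27.1 normalised CPM with artemisinin and 25.02, 21.9 and 25.8 in the model (log2 −0.07 ± 0.21, SE; edgeR adjusted p = 0.857). Mcm5 stood at 15.3, 24.0 and 23.8 with artemisinin and 25.7, 19.9 and 16.3 in the model (log2 0.03 ± 0.25, SE; edgeR adjusted p = 0.946). In both, artemisinin replicate 1 was the lowest of the 6 and the remaining values overlapped. The 6 subunits had log2 fold changes from −0.07 to 0.15. Mcm6 varied most, from 15.002 in artemisinin replicate 1 and 26.2 in artemisinin replicate 2 to 51.1 in artemisinin replicate 3, a 3.40-fold range, against 30.3, 21.53 and 33.5 in the model. Per gene length, the most abundant subunit exceeded the least by 3.52-fold in artemisinin replicate 1 and by 1.99-fold to 2.29-fold in the other 5 libraries. In artemisinin replicate 1 the least abundant was Mcm6, the longest of the 6 (4431 bases), and the most abundant Mcm7, the shortest (2880 bases). Levels in that library fell with gene length, and the part of length in this ratio was not tested. Mcm7 was the highest subunit in FPKM in 5 libraries and Mcm3 in artemisinin replicate 3. Mcm7 hosts the microRNA cluster of Mir25, Mir93 and Mir106b and overlaps Cops6 and Ap4m1 on the opposite strand.

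Licensing and helicase activation genes differed in abundance, from Cdc6, the lowest of the replication set in FPKM, to Cdt1, near the replication median. Cdc6, which helps to load the MCM ring, stood at 2.36, 4.40 and 3.798 normalised CPM with artemisinin and 3.85, 3.08 and 2.17 in the model (log2 0.22 ± 0.40, SE; edgeR adjusted p = 0.754). Cdt1, its loading partner, stood at 9.29, 12.4 and 14.6 with artemisinin and 11.8, 9.77 and 9.53 in the model (log2 0.22 ± 0.23, SE; edgeR adjusted p = 0.573). Neither separated the groups. The GINS complex, which activates the helicase, gave the 2 ends of the replication set. Gins1 stood at 3.94, 3.90 and 2.40 with artemisinin and 2.51, 2.86 and 2.295 in the model, where artemisinin replicates 1 and 2 lay above the model and replicate 3 within it (log2 0.41 ± 0.36, SE; edgeR adjusted p = 0.497). Gins2 stood at 2.99, 4.31 and 3.74 with artemisinin and 5.72, 4.77 and 4.40 in the model, with all artemisinin values below all model values (log2 −0.43 ± 0.30, SE; edgeR adjusted p = 0.405). Gins2 overlaps Gse1 on the opposite strand by 2758 bases.

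The 3 genes of nucleotide supply had log2 fold changes at or below 0. Rrm1, the large subunit of ribonucleotide reductase (chromosome 7, 102441695 to 102469771, GRCm38), stood at 43.6, 70.3 and 57.5 normalised CPM with artemisinin and 74.5, 75.8 and 74.5 in the model. The model values were within 1.02-fold of each other, the tightest of the replication set, and all artemisinin values lay below them. The difference was not called (log2 −0.39 ± 0.18, SE; edgeR adjusted p = 0.235, and 0.0673 before adjustment). Rrm2, the small subunit whose level follows S phase, stood at 11.4, 13.5 and 19.9 with artemisinin and 17.1, 13.8 and 14.0 in the model, centred on the same level (log2 −0.00062 ± 0.25, SE; edgeR adjusted p = 0.999). The 95% interval of Rrm2 ran from −0.58 to 0.58. Tyms, thymidylate synthase, stood at 8.26, 13.9 and 11.6 with artemisinin and 19.4, 15.7 and 10.1 in the model (log2 −0.42 ± 0.30, SE; edgeR adjusted p = 0.416), and its groups overlapped.

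Pcna, the sliding clamp of the replicative polymerases, was both the most abundant and among the steadiest genes of the panel. It stood at 86.1, 100.8 and 92.3 normalised CPM with artemisinin and 87.7, 88.0 and 94.6 in the model. The difference was 0.05 ± 0.12 on the log2 scale (SE), at an edgeR adjusted p of 0.833, with a 95% interval from −0.24 to 0.34, the narrowest of the panel. The regulators of S-phase entry were also centred near 0. E2f1, the transcription factor of the replication wave, stood at 8.88, 14.8 and 11.3 with artemisinin and 12.1, 12.3 and 11.0 in the model (log2 −0.02 ± 0.23, SE; edgeR adjusted p = 0.973). Ccne1, cyclin E1, stood at 2.47, 1.63 and 4.08 with artemisinin and 2.605, 2.095 and 2.48 in the model (log2 0.19 ± 0.44, SE; edgeR adjusted p = 0.807). Both had wider artemisinin than model values and overlapping groups. The 10 replication genes not given in full had log2 fold changes from −0.32 (Pola1, the catalytic subunit of the primase polymerase) to 0.15 (Mcm3), 8 above and 2 below 0, with edgeR adjusted p from 0.566 to 0.979.

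Further genes of the same pathways gave the same library pattern in mitosis and part of it in replication. A list of 50 further mitosis genes had levels of −0.42, −0.08 and 0.08 (log2) in artemisinin replicates 1 to 3 and 0.47, −0.24 and −0.23 in the model replicates, and 46 of the 50 were highest in model replicate 1 among the model mice. A list of 50 further replication genes had levels of 0.02, −0.01 and 0.17 with artemisinin and 0.13, −0.01 and −0.12 in the model. Artemisinin replicate 1 was thus not low in these replication genes, in contrast to its −0.33 in the 22 of the panel. Of the 50 further replication genes, 30 were highest in model replicate 1 among the model mice, against 39.4% of all genes tested. edgeR called 0 of 50 in each list, with 1 and 4 at an unadjusted p under 0.05, against 24.7% of all genes. The median log2 fold changes were −0.17 and 0.02. The smallest p among further mitosis genes belonged to Pttg1, which encodes securin (log2 0.66 ± 0.26, SE; edgeR adjusted p = 0.180), and to Pbk (log2 −0.89 ± 0.47, SE; edgeR adjusted p = 0.278). Among further replication genes they belonged to Pola2, the second subunit of the primase polymerase (log2 0.60 ± 0.17, SE; edgeR adjusted p = 0.0958, and 0.0274 with DESeq2), and to Gmnn, which encodes the licensing inhibitor geminin (log2 0.74 ± 0.27, SE; edgeR adjusted p = 0.153).

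Upstream of both phases, edgeR called 1 gene over 3 lists. Of 19 cyclin-dependent kinase inhibitors and quiescence genes, 11 had log2 fold changes above 0 and 8 below. An unadjusted edgeR p under 0.05 was found for 5 of the 19, against 24.7% of all genes. Only Cdkn2d, which encodes the p19INK4d inhibitor of CDK4 and CDK6, was called. Cdkn2d stood at 14.9, 12.8 and 12.9 normalised CPM in the model and at 28.3, 22.7 and 34.6 with artemisinin. All artemisinin values lay above all model values (log2 1.07 ± 0.20, SE; edgeR adjusted p = 0.0318). A count of 1 of 19 is near the 4.47% called over all genes. Cdkn2a, the p16INK4a and p19ARF locus of the same list, lay the other way and was not called, at 2.54, 2.70 and 3.28 with artemisinin and 7.97, 5.42 and 5.79 in the model (log2 −1.17 ± 0.31, SE; edgeR adjusted p = 0.0791), and its groups did not overlap. Leaving out artemisinin replicate 1 or 3, or any 1 of the model mice, ended the call of Cdkn2d in edgeR, at an adjusted p from 0.0650 to 0.141. Neutrophil precursor markers, 7 genes, summed to 147 to 1528 normalised CPM with artemisinin and 7.70 to 20.2 in the model, and their part in the Cdkn2d difference was not tested. None of 14 genes of G1 cyclins and kinases was called by edgeR, with 4 at an unadjusted p under 0.05, near the 24.7% of all genes. In that list Ccnd3, cyclin D3, stood at 241.4, 160.9 and 181.4 with artemisinin and 116, 112.7 and 117.2 in the model (log2 0.75 ± 0.18, SE; edgeR adjusted p = 0.0608). Ccnd1, cyclin D1, stood at 229.8, 283 and 219 with artemisinin and 352.8, 365.6 and 349 in the model (log2 −0.54 ± 0.16, SE; edgeR adjusted p = 0.103). Neither pair of groups overlapped. Over all genes, groups did not overlap for 16.3% with artemisinin above and for 17.3% with artemisinin below. With DESeq2, which called 14.1% of all genes, the adjusted p was 0.00305 for Ccnd3 and 0.00566 for Ccnd1. Among 19 E2F and MYC regulators none was called by edgeR, with 5 at an unadjusted p under 0.05, again near the 24.7% of all genes. Mycn, a MYC family transcription factor of growing tissue and of some tumours, stood at 2.32, 1.82 and 4.66 with artemisinin and 27.3, 9.06 and 7.36 in the model (log2 −2.31 ± 0.60, SE; edgeR adjusted p = 0.0777, and 0.00115 with DESeq2). Its groups did not overlap, and its highest value was in model replicate 1. Without that mouse its log2 fold change was −1.48. For E2f2, an activating E2F, the difference was 0.40 ± 0.13 on the log2 scale (SE), and edgeR's adjusted p was 0.118.

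The summed markers of cell types that could hold cycling cells are set beside the proliferation levels here. Model replicate 1, the highest in mitosis, had the highest alveolar type 2 sum (63377 normalised CPM over 6 markers) and the lowest endothelial sum of the model (1279 over 4 markers, against 2101 and 2145). Its sums of T cells (74.4), B and plasma cells (537.9), mature neutrophils (97.9) and ciliated cells (76.2) were the lowest of all 6 libraries. Artemisinin replicate 1, the lowest in both phases, had the lowest macrophage sum (393.3 over 6 markers, against 555.2 to 796.0 in the other libraries), the lowest endothelial sum (1064) and the highest erythroid sum (1155 over 7 markers, against 211.4 to 1016). Its macrophage markers did not move together. Marco, Adgre1, Mrc1 and Cd68 were lowest there, and Siglecf (12.3) was lower still in artemisinin replicate 3 (10.4). Csf1r, at 204.9, lay above all model values (113.0 to 121.0). Artemisinin replicate 3, second in both phases, had the highest sums of neutrophil precursors (1528), mature neutrophils (3610 over 5 markers), T cells (185 over 6 markers) and B and plasma cells (1397 over 6 markers). It also had the highest endothelial sum (2732) and the lowest alveolar type 2 sum (5753). Thymocyte markers were near 0, with 3 genes summing to at most 1.01. The part of these cell types in the proliferation levels was not tested.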

How the data were processed

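RNA of 6 mice, 3 of them given artemisinin, was sequenced. The labels' protocols name a mirVana kit for the extraction and TruSeq Stranded mRNA for the libraries. The build was GRCm38 (mm10), per the submitters' processing notes, while no aligner, counter, annotation or strand setting is given there. The authors deposited raw counts per gene and FPKM, a unit per gene length and library total. With GENCODE M21 genes, 22 of the 44 members overlap another gene, and 4 have a pseudogene named for them, so their counts are less certain.

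Counts of 15242 genes passing filterByExpr were tested with edgeR 4.0.16 (R 4.3.3): TMM factors (0.9502 to 1.061), robust glmQLFit, glmQLFTest and Benjamini-Hochberg adjustment over all genes, threshold 0.05. Standard errors were the size of the log2 fold change divided by the square root of F. Alternatives were other scalings and filters, DESeq2 1.42.0, limma-voom and limma 3.58.1 on log2(FPKM + 0.1) or log2(FPKM + 1), each library left out, and the replicate number as a block. Levels by length used log2(normalised CPM + 0.1) and 5 equal parts of the genes by the length that counts and FPKM imply. The fit was tested on simulated data. Members given in full were 14 listed genes, any called and the 3 highest and 3 lowest fold changes per phase. Members and lists were chosen with earlier results of these data known. Kif11, Mcm6 and the genes named by range were picked after their values were seen, as were Tnnc2, Elovl1, Cdkn2a, Mad2l1 and Ttk.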

Additional observations from a re-analysis of the deposited data

How the results depend on the processing

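The number of members called stayed at 0 for both phases in all 15 alternatives. The mitosis median ranged from −0.44 to 0.14 and the replication median from −0.10 to 0.14 (log2). Scaling by library totals moved the median of all genes from 0.04 to 0.14 and the mitosis and replication medians to −0.11 and 0.14. With this scaling, with FPKM or relative to genes of like length (added after the data were seen), no phase level moved by more than 1 SD of its group, though library totals and FPKM put artemisinin replicate 3 above model replicate 1 in replication, and the mitosis level of artemisinin replicate 2 was 0.0017 with library totals. Over all genes, edgeR called 682, DESeq2 2286, and between 17 and 1383 with 1 library left out, the fewest without model replicate 1 and the most without artemisinin replicate 2. With the replicate block edgeR called 129 genes, and Cdkn2d had an adjusted p of 0.0743. Same-numbered mice were not paired by the data, with correlations of their deviations of 0.00251, −0.138 and 0.0419, and no library correlated best with its own number. Of 360 fold changes of the 24 members given in full, 31 changed sign and none reached the threshold. The count depth and 3 mice per group limit the precision: the 95% interval exceeded a 2-fold change on at least one side for most mitosis genes.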
